A study of Mus musculus with 6 samples.

Results

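The genes described here are 9 genes of meiotic recombination and crossing over in the mouse: Spo11, Dmc1, Brca2, Meiob, Spata22, Msh4, Msh5, Hfm1 and Mlh3. They were chosen by symbol from the symbol column of the deposited count table, and each symbol matched exactly 1 of 57010 gene IDs. All 9 had counts in every library and all 9 passed the filter on low counts. The measurement is RNA recovered with the protein PNMA4, whose gene (Moap1 in mouse tables) derives from a retrotransposon capsid gene, from dense particles of testis lysate. Particles were taken from the top of 70% sucrose, separated by density on iodixanol, and immunoprecipitated from fractions 8 and 9.

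The 3 wild-type libraries (C57BL/6J mice, replicates 1 to 3) were set against 3 libraries lacking PNMA4. Of the latter, replicates 1 and 2 came from Pnma4-/- mice and the third from Pnma1-/- Pnma4-/- double knockout mice. Each library is a pool of 8 testes collected at 3 months, so it holds no spread between animals within a pool. The strain of the knockout mice is not given in the sources used here. Per the labels' protocol all preparations received the same antibody and beads, and the libraries lacking PNMA4 serve as the control for RNA recovered without the target. Input RNA of the same lysates was not analysed here, and fewer cells of a type cannot be told apart from less RNA per cell or from lower recovery.

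Meiotic recombination begins when the SPO11 complex cuts both DNA strands in early spermatocytes. The cut ends are resected and coated with single-strand binding proteins, and BRCA2 loads recombinases, DMC1 among them, which search the homologous chromosome for a match. Most breaks are repaired without exchange. A minority are stabilised by the MSH4-MSH5 clamp and the helicase HFM1 and are turned into crossovers by an endonuclease that contains the product of Mlh3, which gives each chromosome pair the link that it needs to segregate. The messages are made mainly in spermatocytes, the meiotic cells of the adult testis.

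Total counts ran from 3138657 to 6367930 per library. The targeted genes had no counts in the libraries named for their loss. Moap1 had 7, 26 and 27 counts in wild type and 0 in the 3 other libraries, and Pnma1 had 76 to 152 counts in 5 libraries and 0 in the double knockout. The double knockout library stood apart, with 57.5% of its counts in the 18S-like gene Rn18s-rs5 (27.3% to 36.1% elsewhere) and a TMM scaling factor of 0.629 (1.01 to 1.29 elsewhere). Wild-type replicate 2 stood apart in the counts assigned to Lars2, at 0.751% of counts against 4.34% to 10.8% elsewhere. Lars2 is a mitochondrial leucyl-tRNA synthetase gene. Whether counts at this share come from its message was not tested, and 1 alternative below leaves out Lars2 with Rn18s-rs5. No pair of libraries agreed within sampling noise (chi-square per gene of at least 8.60).

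Spermatocyte RNA was present in all 6 libraries. All 13 spermatocyte markers were detected, and their summed level was 1793, 1754 and 2165 CPM (counts relative to the TMM-scaled library size) in wild-type replicates 1 to 3. Without PNMA4 it was 1519, 1880 and 1753 CPM in the same order. Highest in CPM, uncorrected for length, were the meiotic cohesin gene Stag3 (387 ± 73.6 and 371 ± 11.3 CPM, SD, n = 3 each) and Piwil1, a piRNA-binding protein of spermatocytes and spermatids (384 ± 35.9 and 314 ± 48.7 CPM). The ranges of the groups overlapped. Wild-type replicate 3 was highest in this sum, and replicate 1 of the group lacking PNMA4 was lowest.

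Markers of other cells were also in the libraries. Summed levels were 61.3 to 63.0 CPM in wild type and 58.6 to 86.1 CPM without PNMA4 for 8 spermatogonia markers, all detected (Kit and Zbtb16 highest). For 8 round spermatid markers, all detected, they were 256 to 272 and 267 to 299 CPM (Zpbp and Tssk1 highest). For 7 elongating spermatid markers, all detected, they were 983 to 1231 and 1205 to 1246 CPM (Prm2 and Odf1 highest). Sums of Sertoli, Leydig, peritubular and vascular, spermatogonia, round spermatid, epididymis and blood markers were highest in the double knockout library. Its 8 Sertoli cell markers summed to 379 CPM (174 to 265 elsewhere, Clu and Amhr2 highest) and its 7 Leydig cell markers to 414 CPM (158 to 207 elsewhere, Cyp17a1 and Star highest). All of these were detected. The 5 peritubular and vascular markers summed to 52.5 CPM there and 26.1 to 40.4 CPM elsewhere (Myh11 and Acta2 highest). Macrophage markers, 4 of 4 detected, summed to 7.17 to 7.87 CPM in wild type and 6.38 to 11.0 CPM without PNMA4 (Csf1r and Cd163 highest). Of 4 epididymis markers, Defb20 and Lcn5 were at 0 in all 6 libraries. Crisp1 and Adam7 gave sums of 0.457 to 0.889 and 4.40 to 10.6 CPM. Blood markers, 4 of 4 detected, summed to 1.02 to 3.39 and 2.13 to 8.31 CPM (Hbb-bs and Hba-a1 highest). The part of these differences in the values of the recombination genes was not tested.

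Sequence around a promoter start was read for the members as a description. RefSeq promoter windows (GRCm38.p6, 250 bases before to 50 after a start) held 7 of the 9 genes, all but Spo11 and Meiob. The letters of 3 motifs were searched on both strands. CNCCTCAG is a motif of STRA8, the factor with which germ cells enter meiosis. TTTCCCGC, TTTGGCGC, TTTCGCGC and TTTGCCGC stand for E2F factors of the cell cycle, and TAACNG and CAACNG for MYB factors, which include a regulator of pachytene spermatocytes. The STRA8 letters were in Hfm1 and Msh5, 2 of 7 genes, and in 9.12% of all 27025 genes with a window and 7.94% of all 32851 windows. The E2F letters were in Brca2, Dmc1 and Msh5, 3 of 7 genes, and in 2.6% of all genes and 2.26% of all windows. All E2F letters hold CG, and these windows have 25, 18 and 27 CG pairs, beside a median of 7 over all windows. Of the windows without E2F letters, Hfm1 (41), Spata22 (25) and Mlh3 (22 and 21) also lie above that median, and Msh4 (6) below. The part of CG content in the matches was not tested. The MYB letters were in Msh4 and Msh5, 2 of 7 genes, and in 53.1% of all genes and 49.7% of all windows. The letters of different motifs did not overlap in the stretches shown. Msh5 was the gene that held all 3.

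Stretches of 80 bases are shown for the 3 genes with STRA8 or E2F letters, in capitals, wholly before the start on which the window is set. Each stretch is read 5′ to 3′ on the strand of the gene. A second STRA8 match of Hfm1, from −6 to 2, crosses that start and is not shown. All 3 stretches lie inside the RefSeq gene spans given below, so they do not lie upstream of the whole gene. The Msh5 stretch (chr17:35046653-35046732, minus strand) has CTGAGGTG, the STRA8 letters on the opposite strand, and then GCGGGAAA, the E2F letters on the opposite strand. The Hfm1 stretch (chr5:106925913-106925992, minus strand) has CTGAGGCG, and the Brca2 stretch (chr5:150522417-150522496, plus strand) has GCGGGAAA. A match of letters is a description of the sequence. The RNA counts do not measure binding or transcription at these places.
Msh5: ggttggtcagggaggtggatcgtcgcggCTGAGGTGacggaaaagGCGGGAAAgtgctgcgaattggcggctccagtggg
Hfm1: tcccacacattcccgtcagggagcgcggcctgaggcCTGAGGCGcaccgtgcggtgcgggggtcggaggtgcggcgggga
Brca2: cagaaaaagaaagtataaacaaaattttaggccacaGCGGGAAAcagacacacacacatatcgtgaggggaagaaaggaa

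None of the 9 recombination genes was recovered at a level that passed the test between wild type and the libraries lacking PNMA4. The test was edgeR's quasi-likelihood test over 13413 genes with Benjamini-Hochberg adjustment at 0.05. It called 8 genes (3 higher and 5 lower in wild type), or 0.0596% of those tested, and 0 of the 9 members. The deleted gene Moap1 was among the 3 higher in wild type (log2 fold change 7.08). The adjusted p was 1.00 for each member, and no member had an unadjusted p under 0.05, against 391 of all genes. DESeq2 also called 0 members, with 0 at an unadjusted p under 0.05. Log2 fold changes of wild type over lacking PNMA4 ran from −0.31 (Spo11) to 0.34 (Msh5), 5 positive and 4 negative. Their median was 0.0011, beside 0.012 over all genes tested.

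The 95% intervals of the log2 difference excluded a change of 2-fold or more, that is they stayed between −1 and 1, for all 9 members and for 71.1% of all genes tested. The interval of Spata22 rests on a standard error that may be too small, as given below. The intervals are relative to the bulk of genes, which TMM scaling sets near 0. Without scaling factors the median of all genes was 0.31, all 9 members were positive with a median of 0.32, and 3 members kept such an interval. With 1 library left out, 6 to 8 members kept it. It was 8 without wild-type replicate 1, 7 without wild-type replicate 2 or 3, and 6 without any 1 of the 3 libraries lacking PNMA4. The summed level of the members was 239, 258 and 339 CPM in wild type and 248, 269 and 289 CPM without PNMA4. The groups overlapped, with wild-type replicate 1 lowest and wild-type replicate 3 highest.

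**Figure D1:**
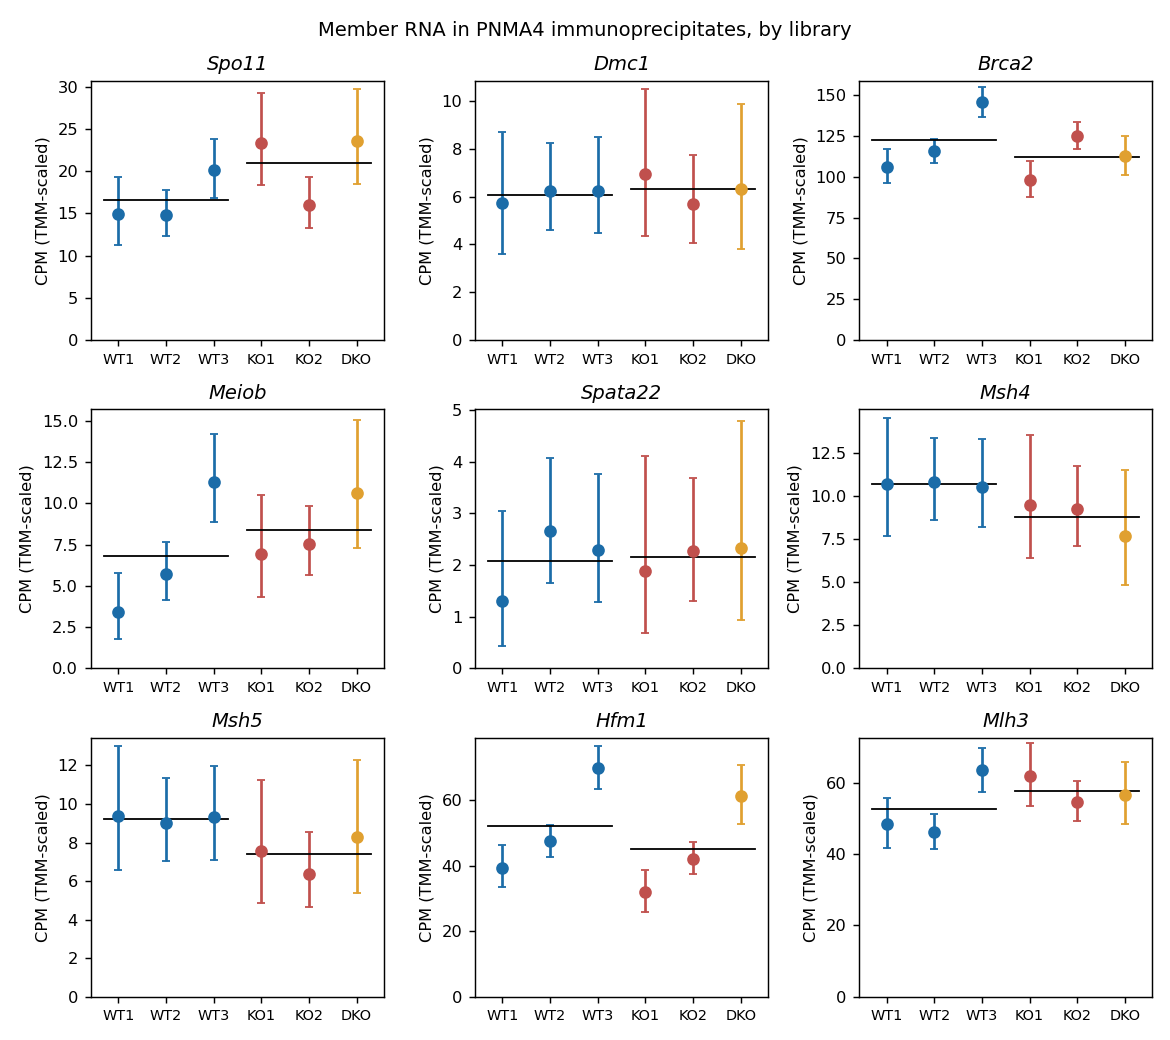
Level of each gene (vertical axis, TMM-scaled CPM from 0) in wild-type replicates 1 to 3 (WT1 to WT3, blue), the Pnma4 knockouts (KO1 and KO2, red) and the double knockout (DKO, yellow). Bars are 95% exact Poisson intervals, which cover counting error only, and black lines are group means of 3 libraries. Groups overlap in 7 of the 9 genes, and in Msh4 and Msh5 all 3 wild-type points lie above the other 3.

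Spo11 (ENSMUSG00000005883, chromosome 2, 172977379 to 172993576 in GRCm38.p6), which encodes the topoisomerase-like protein that cuts the DNA, was counted 57, 117 and 132 times in the wild-type libraries and 74, 113 and 71 times in those lacking PNMA4. Its level was 14.9, 14.9 and 20.1 CPM in wild type and 23.3, 16.0 and 23.6 CPM without PNMA4. The double knockout and replicate 1 of the group lacking PNMA4 were highest, and wild-type replicate 3 lay above the second Pnma4 knockout, so the groups overlapped. Wild type over lacking PNMA4 gave −0.31 on the log2 scale, with standard error 0.24. The interval reached from −0.82 to 0.19, that is from 0.568-fold to 1.14-fold. A RefSeq lncRNA, Gm52538, overlaps 1742 bases of the Spo11 span and had no row in the table.

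Its partner in the cutting complex, Top6bl (Gm960 in the table), is not a member and is named after its values were seen. It stood at 2.35, 2.03 and 2.44 CPM in wild type and 2.84, 3.69 and 3.66 CPM without PNMA4. All 3 wild-type libraries lay below the others, and the log2 fold change of −0.60 (standard error 0.39) did not pass (edgeR adjusted p = 1.00).

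Dmc1 (ENSMUSG00000022429, chromosome 15, 79561497 to 79605159) encodes the recombinase found in meiosis alone. Dmc1 was counted 22, 49 and 41 times in the wild-type libraries and 22, 40 and 19 times in those lacking PNMA4. Levels were 5.74, 6.22 and 6.25 CPM in wild type and 6.93, 5.67 and 6.32 CPM without PNMA4. The highest library was 1.22 times the lowest, the smallest such ratio of the 9 members. Counting error alone was 14.3% to 22.9% per library, so this ratio does not show a stable level. Both extremes were Pnma4 knockouts, with all wild-type libraries between them. The log2 fold change of wild type over lacking PNMA4 came to −0.03, standard error 0.30, and the interval ran from −0.66 to 0.59.

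Brca2 (ENSMUSG00000041147, chromosome 5, 150522297 to 150570147), which loads the recombinases onto the resected ends, gave the most counts of the set, 3809 over the 6 libraries. Counts also grow with transcript length, and lengths of transcripts were not used here, so levels are not compared between genes, and a gene named as highest in CPM is one with many counts, not one with more molecules. It was counted 407, 911 and 957 times in the wild-type libraries and 311, 884 and 339 times in those lacking PNMA4. The levels were 106, 116 and 146 CPM in wild type and 98.0, 125 and 113 CPM without PNMA4. Wild-type replicate 3 was highest and the first Pnma4 knockout lowest, with the other 4 libraries interleaved. The fitted log2 difference, wild type minus lacking PNMA4, came to 0.13 (standard error 0.21), and −0.0091 without wild-type replicate 3. The RefSeq lncRNA Gm42529 inside the gene had 2 to 9 counts per library.

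Meiob and Spata22 encode partners that bind single-stranded DNA together and keep recombination intermediates stable. Meiob (ENSMUSG00000024155, chromosome 17, 24804301 to 24839788) was counted 13, 45 and 74 times in the wild-type libraries and 22, 53 and 32 times in those lacking PNMA4. Levels were 3.39, 5.71 and 11.3 CPM in wild type and 6.93, 7.52 and 10.6 CPM without PNMA4. It was the most variable member: the highest library was 3.33 times the lowest, and both of these were wild type. Wild type over lacking PNMA4 gave −0.24 on the log2 scale, with standard error 0.35. It was −0.79 without wild-type replicate 3 (adjusted p = 0.467). In that fit this 1 of the 9 members had an unadjusted p under 0.05, as did 1321 of all 13310 genes tested. Without wild-type replicate 1 the Meiob value was 0.024. Meiob shares 8 bases with Hagh in RefSeq, and the log2 difference of Hagh was −0.0087 (edgeR adjusted p = 1.00).

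Spata22 (ENSMUSG00000112920, chromosome 11, 73326560 to 73346592) had the fewest counts, 5, 21 and 15 in wild type and 6, 16 and 7 without PNMA4. Its levels were 1.30, 2.67 and 2.29 CPM in wild type and 1.89, 2.27 and 2.33 CPM without PNMA4. The lowest and the highest library were both wild type, and the 95% counting intervals of all 6 libraries overlapped. The log2 fold change of wild type over lacking PNMA4 came to 0.0011, standard error 0.36, and its sign turned in 5 of 13 alternatives. A standard error taken from a difference so near 0 is unstable and may be too small. Rnf212b of the pathway list, with 74 counts in all against 70 for Spata22, had 0.43. Spata22 shares 317 bases with Aspa in RefSeq, where reads cannot be assigned with certainty. Aspa had 6 to 19 counts per library, with a log2 difference of −0.51 (edgeR adjusted p = 1.00).

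Msh4 and Msh5, whose proteins form the clamp that marks future crossovers, were the only members whose groups did not overlap. Msh4 (ENSMUSG00000005493, chromosome 3, 153857141 to 153906138) was counted 41, 85 and 69 times in the wild-type libraries and 30, 65 and 23 times in those lacking PNMA4. Its level was 10.7, 10.8 and 10.5 CPM in wild type and 9.45, 9.22 and 7.64 CPM without PNMA4. The lowest wild-type library lay just above the highest library without PNMA4, and the double knockout was lowest. The fitted log2 difference, wild type minus lacking PNMA4, came to 0.27 (standard error 0.26), with an interval from −0.26 to 0.80.

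Msh5 (ENSMUSG00000007035, chromosome 17, 35028605 to 35046997) was counted 36, 71 and 61 times in the wild-type libraries and 24, 45 and 25 times in those lacking PNMA4. Its level was 9.39, 9.02 and 9.30 CPM in wild type and 7.56, 6.38 and 8.31 CPM without PNMA4. Again all wild-type libraries were above the others, here with the second Pnma4 knockout lowest. Wild type over lacking PNMA4 gave 0.34 on the log2 scale, with standard error 0.28, with an interval from −0.23 to 0.90. For both genes the 95% counting intervals of wild type and of the libraries without PNMA4 overlapped. Whether counting error alone gives this order of libraries was not tested. The RefSeq lncRNA Gm52318 overlaps 1765 bases of Msh5 and had no row in the table, and Sapcd1 lies 0.048 kb from it.

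Among all genes tested, 6.68% had groups that did not overlap, 436 higher and 460 lower in wild type. The members had 2 of 9, both higher. Msh4 and Msh5 were also the 2 with upper-quartile scaling (6.6% of all genes), RLE scaling (6.66%) and no scaling factors (7.89%). The 9 genes were chosen with results of these data known, and the count is given as a description. The log2 fold change was positive for both genes under all 14 alternatives. It ran from 0.20 to 0.56 for Msh4 and from 0.22 to 0.66 for Msh5. With groups that do not overlap this sign was largely fixed in advance, so its constancy adds no support. Neither gene passed under any alternative (lowest adjusted p 0.724).

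Hfm1 (ENSMUSG00000043410, chromosome 5, 106840193 to 106926712), a DNA helicase that acts with the MSH4-MSH5 clamp in crossing over, was counted 151, 373 and 457 times in the wild-type libraries and 101, 296 and 184 times in those lacking PNMA4. Levels were 39.4, 47.4 and 69.7 CPM in wild type and 31.8, 42.0 and 61.2 CPM without PNMA4. Wild-type replicate 3 and the double knockout were high, and their counting intervals lay above those of the other 4 libraries. These 2 libraries also held the highest levels of Meiob. For Hfm1 the log2 fold change of wild type over lacking PNMA4 came to 0.22 (standard error 0.25), and to −0.031 without wild-type replicate 3.

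Mlh3 (ENSMUSG00000021245, chromosome 12, 85234466 to 85270647), which encodes a subunit of the endonuclease that makes crossovers, was counted 185, 363 and 416 times in the wild-type libraries and 196, 385 and 170 times in those lacking PNMA4. Its levels were 48.3, 46.1 and 63.4 CPM in wild type and 61.7, 54.6 and 56.5 CPM without PNMA4. The lowest and the highest library were both wild type, and all libraries lacking PNMA4 lay between them. The fitted log2 difference, wild type minus lacking PNMA4, came to −0.13 (standard error 0.21). Mlh3 is the one member on the chromosome of the deleted genes, 1086 kb from Pnma1 and 17469 kb from Moap1. The double knockout, which lacks Pnma1, stood inside the range of the other libraries for Mlh3.

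**Figure D2:**
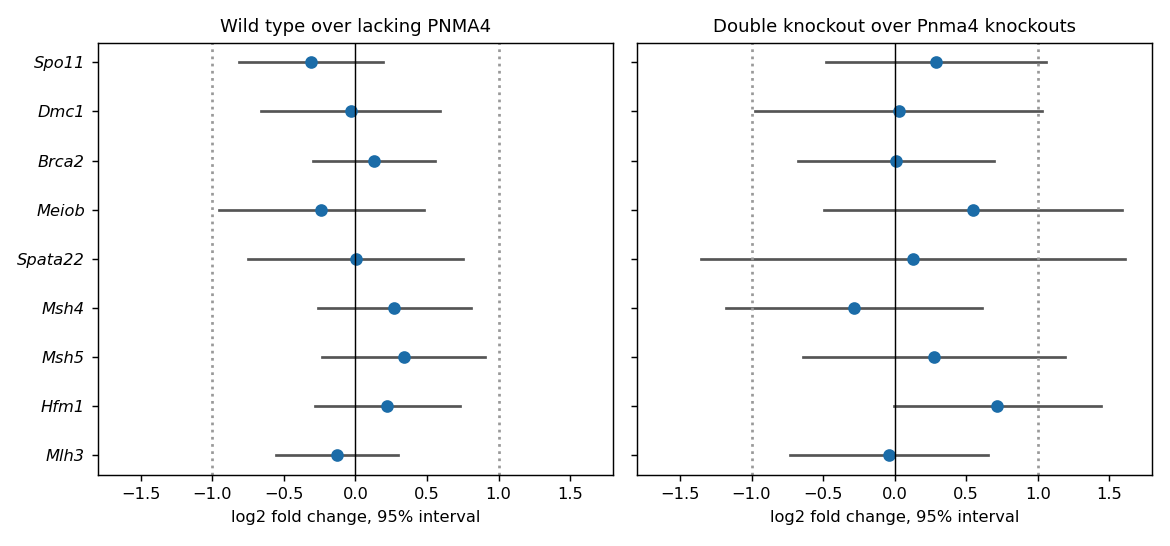
Log2 fold change (horizontal axis) with its 95% interval for each gene, for wild type over lacking PNMA4 (left, 3 against 3 libraries) and for the double knockout over the Pnma4 knockouts (right, 1 against 2 libraries). Dotted lines mark a 2-fold difference. All 9 intervals lie between them on the left, and the intervals on both sides include 0.

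Spread between libraries differed among the members. The biological coefficient of variation of the edgeR fit was lowest for Mlh3 (17.6%), Msh4 (17.8%) and Brca2 (17.9%) and highest for Spata22 (22.4%) and Meiob (25.5%). The median over all genes tested was 20.4%. Meiob lay above 88.9% of all genes in this measure and Mlh3 above 7.12%. Wild-type replicate 3 was the highest library for 4 members (Brca2, Meiob, Hfm1 and Mlh3) and the lowest for none. The share of all genes for which this library was highest or lowest was not computed, so the count is a description only. The same library was also highest in the spermatocyte markers, and the part of this in the member values was not tested.

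**Figure D3:**
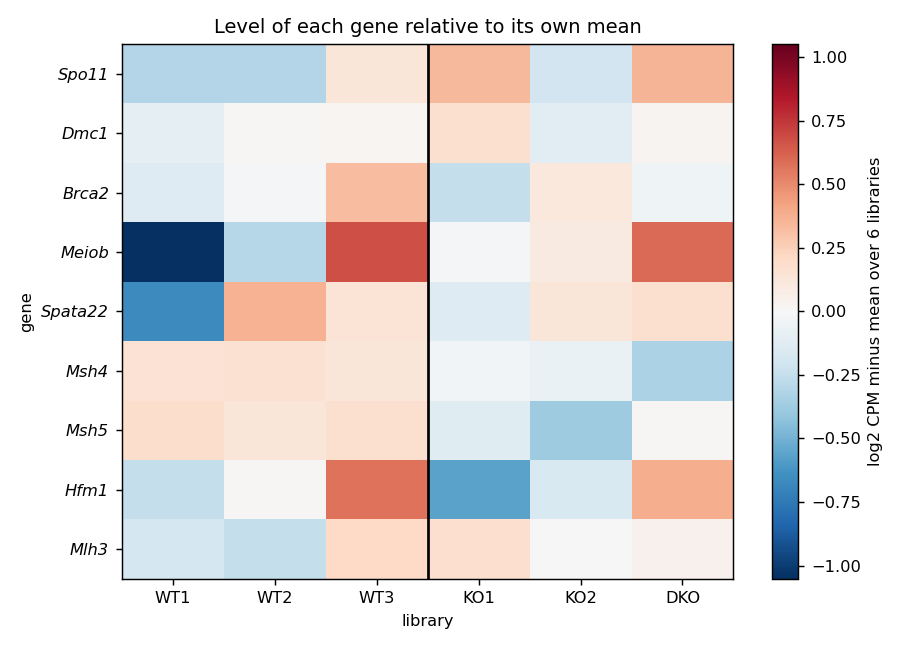
Log2 CPM of each gene minus its own mean over the 6 libraries (colour scale, red above and blue below) by library (horizontal axis), with a line between wild type and the libraries lacking PNMA4. Meiob is darkest, blue in WT1 and red in WT3 and DKO, Hfm1 is red in the same 2 libraries, and Dmc1 is near 0 throughout.

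Pairs of members differed in how closely they followed each other over the 6 libraries. Over their 36 pairs, Pearson's r of log2 CPM had a median of 0.19 and was positive in 23. It was highest for Spo11 with Mlh3 (0.81) and lowest for Spo11 with Msh4 (−0.66). Msh4 with Msh5 gave 0.46, and Meiob with Spata22 0.68. All points share the 6 libraries and their scaling factors, and counts of Spata22 and Meiob are low, so these values describe the libraries only. Counting error pulls r toward 0, and r over pairs of all genes was not computed. Whether the members share a profile is therefore not settled by these values. The 5 other genes closest to the mean standardised profile of the members were Esyt2 (r = 0.99), Fsip2l (0.99), Pde12 (0.98), Slc16a9 (0.98) and Aida (0.97), over 6 libraries and out of the other genes tested. They were picked for the highest r, so a high r is fixed by the choice and tests nothing. Esyt2 stood at 30.8, 37.3 and 44.7 CPM in wild type and 37.2, 34.5 and 38.6 CPM without PNMA4, with wild-type replicate 1 lowest and wild-type replicate 3 highest, as in the summed level of the members.

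Ratios of counts within partner pairs were compared next, because the scaling of a library cancels in a ratio. Msh4 over Msh5 was 1.14, 1.20 and 1.13 in wild type and 1.25, 1.44 and 0.920 without PNMA4. Meiob over Spata22 was 2.60, 2.14 and 4.93 in wild type and 3.67, 3.31 and 4.57 without PNMA4. Both ranges overlapped between the groups. Brca2 over Dmc1 was 18.5, 18.6 and 23.3 against 14.1, 22.1 and 17.8. These 3 ratios did not pass in two-sided exact permutation tests of the log2 ratio (p = 0.9, 0.5 and 0.4 in this order, adjusted p = 0.9 for each over the 4 ratios tested, n = 3 each), a design whose smallest p is 0.1.

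The labels allow a comparison inside the group lacking PNMA4, of the double knockout with the Pnma4 knockouts. It rests on 1 library against 2, and the lone library was assumed to vary like the others. Pnma1 itself, deleted only in the double knockout, gave −9.91 on the log2 scale. In the edgeR fit with the 3 genotypes as groups, 10 of 13413 genes were called, or 0.0746%, and 0 of the 9 members (829 genes and 0 members had an unadjusted p under 0.05). DESeq2 called 0 members too. The largest difference among members was that of Hfm1, at 61.2 CPM in the double knockout and 31.8 and 42.0 CPM in the Pnma4 knockouts. The double knockout over the Pnma4 knockouts gave 0.72 on the log2 scale (standard error 0.35, edgeR adjusted p = 0.809), and the interval ran from −0.0045 to 1.44. Meiob followed with 0.55 (standard error 0.51, edgeR adjusted p = 0.987).

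Msh4 had the lowest value of this contrast, −0.28 (standard error 0.44, edgeR adjusted p = 0.995), and Mlh3 one of −0.04. The other 5 members lay between 0.0094 (Brca2) and 0.29 (Spo11). The median of the members was 0.13, beside −0.0036 over all genes. Without scaling factors all 9 members were negative with a median of −0.63, where the median of all genes was −0.76. For 44.2% of all genes the double knockout lay outside the range of the other 5 libraries. Among the members it did so for Spo11, above, and for Msh4, below. Sertoli, Leydig, spermatogonia, round spermatid and other marker sums were highest in the same library, as given above, and their part in these values was not tested.

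No other gene of the pathway passed the test either. Of 56 genes in a list sorted by role, 55 had a row in the table and 50 passed the filter on low counts. None was called in edgeR, 0 higher and 0 lower (0 at an unadjusted p under 0.05, and 0 called by DESeq2). Their median log2 fold change was 0.07 and 36 of 50 were positive, beside 0.012 and 51.9% over all genes tested. Intervals stayed between −1 and 1 for 45 of the 50. Top6bl was the 1 of 50 whose groups did not overlap, beside 6.68% of all genes. With RLE scaling 1 pathway gene was higher and 1 lower without overlap, and without scaling factors 5 were higher and 0 lower, so Top6bl is not among those.

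Among 9 genes of break formation 7 were tested, with a median of 0.19. The 2 highest in CPM were Ankrd31, which is needed for breaks in the region shared by the sex chromosomes (79.3 ± 17.6 CPM in wild type, 82.9 ± 8.19 CPM in the other group, SD, n = 3 each), and Hormad1, a chromosome axis protein (25.4 ± 15.5 and 32.4 ± 7.45 CPM). Mei4 and Rec114, both needed for cutting, were too low to test, with 12 and 17 counts in all. The break-formation list had the widest range, from −0.60 (Top6bl) to 0.59 (Prdm9, which marks hotspots and is named after its values were seen).

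All 6 genes of end processing and signalling were tested, with 5 positive values and a median of 0.24. Atm, the kinase that senses breaks, stood at 37.1 ± 9.83 and 31.9 ± 7.15 CPM, and Rbbp8, which starts resection, at 36.1 ± 6.50 and 29.6 ± 1.88 CPM (SD, n = 3 each). Among 21 strand exchange genes 19 were tested, with a median of 0.05 and 15 positive. Tex15, a germ cell factor needed for repair of the breaks, stood at 186 ± 93.6 and 166 ± 34.8 CPM, and Rpa1 of the single-strand binding complex at 106 ± 11.1 and 105 ± 6.87 CPM. Mnd1 and Rpa3 were too low to test, with 17 and 14 counts.

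Of 11 crossover genes 10 had a row and 9 were tested, with a median of 0.08 and 6 positive. Cdk2, a kinase at crossover sites, stood at 52.4 ± 7.32 and 48.1 ± 9.68 CPM, and Cntd1, which is needed for crossovers to mature, at 28.4 ± 1.65 and 31.9 ± 4.05 CPM (SD, n = 3 each). Rnf212, which helps choose crossover sites, was not tested, with 37 counts. All 9 genes of other resolution pathways were tested, with a median of 0.04 and 6 positive. Slx4, a nuclease scaffold, stood at 407 ± 84.9 and 311 ± 46.9 CPM, with the highest log2 fold change of this role (0.39, standard error 0.22, edgeR adjusted p = 1.00). Blm, a helicase that dissolves joined molecules, stood at 44.5 ± 4.72 and 39.7 ± 6.79 CPM.

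**Figure D4:**
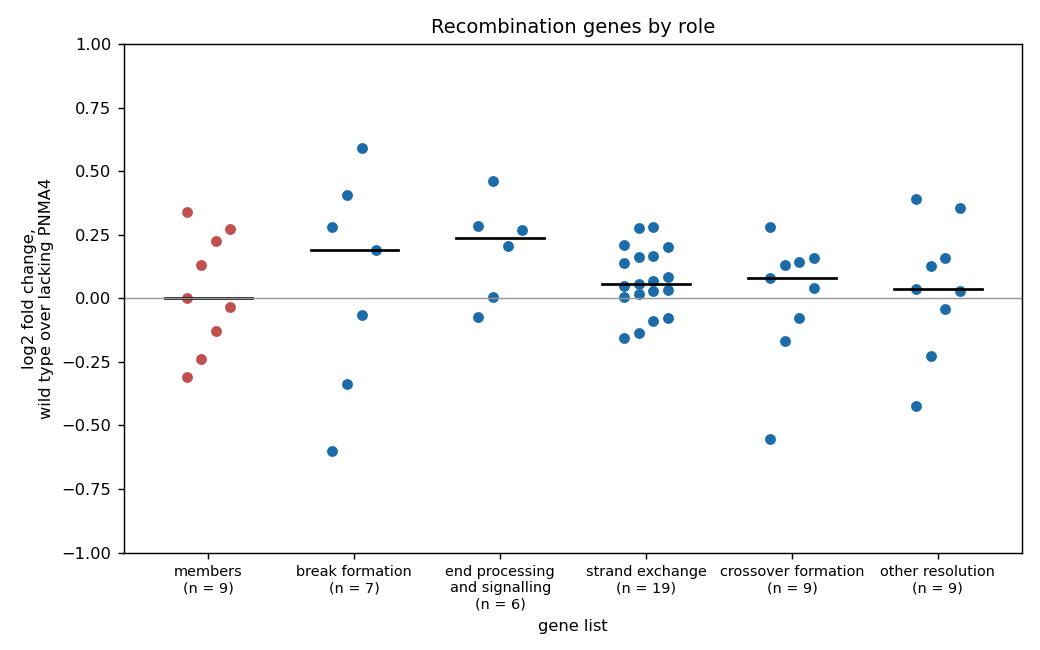
Log2 fold change of wild type over lacking PNMA4 (vertical axis) for the 9 members (red) and the tested genes of 5 roles of the pathway (blue), 1 point per gene, with a line at the median of each list. All points lie between −0.60 and 0.59, and none passed the test.

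In the contrast of the double knockout with the Pnma4 knockouts, 0 of the 50 pathway genes were called (lowest edgeR adjusted p = 0.543). That lowest value was Eme1, a subunit of a resolving nuclease, named after its values were seen. It had 4 counts in the double knockout (1.33 CPM) against 5.04 and 5.39 CPM in the Pnma4 knockouts and 3.05 to 3.13 CPM in wild type. The double knockout lay below the other 5 libraries for 13 of the 50 genes and above them for 2, beside 2851 below and 3073 above among all 13413. It was below for 4 of 9 genes of crossover formation and for 4 of 9 of other resolution, and above for 0 of either.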

How the data were processed

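RNA of PNMA4 immunoprecipitates from 6 testis lysates was analysed from 1 table of raw counts per Ensembl gene ID. The authors deposited these counts, whole numbers with no normalization. The submitters' processing notes name STAR 2.5.2b, bcl2fastq 2.20, featureCounts, DESeq2 and GRCm38 without roles. How the counting treated strand and reads matching more than 1 gene is not given in the sources used here. All 6 count columns matched libraries by name.

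The test was edgeR's quasi-likelihood test (version 4.0.16, under R 4.3.3) after filterByExpr (minimum count 10, minimum total 15) and TMM scaling, with Benjamini-Hochberg adjustment at 0.05 over all 13413 genes. Standard errors were obtained from the fitted log2 difference and its F statistic, which is unstable where the difference is near 0. DESeq2 1.42.0 was an alternative. The step was tested on simulated data. Levels are CPM, given per library or as mean ± SD. The sources used here name no molecular identifiers, so exact 95% Poisson intervals cover counting error only. Per the labels, the 3 preparations in each group are biological replicates.

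Members, pathway list and markers were chosen with earlier results of these data known. Named pathway genes are the 2 tested genes of each role highest in mean CPM, besides those said to be named after their values were seen and those too low to test. Positions, overlaps and sequences come from RefSeq tables of GRCm38.p6, where all 9 symbols matched. Spo16 of the pathway list matched no row. Levels per coding length had been planned and were not computed, since lengths were not used here. Alternatives were DESeq2, upper-quartile, RLE and no scaling, no filter and a stricter one, the replicate block, Rn18s-rs5 and Lars2 left out, and each library left out. The fourth ratio of partner genes tested is not reported here.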

Additional observations from a re-analysis of the deposited data

How the results depend on the processing

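No member and no pathway gene was called under any of 14 alternatives (8 other settings and 6 libraries left out in turn), and the lowest adjusted p of a member was 0.467. The 8 genes called in all became 31 without the filter, 3 with the stricter filter (minimum count 30, which drops Spata22), and 8 to 18 with 1 library left out, the 18 without the double knockout. The median log2 fold change of the members, 0.0011, was −0.012 with DESeq2, 0.32 without scaling factors (0.31 over all genes) and −0.034 to 0.18 with 1 library left out. Without scaling factors Spo11 (0.010), Dmc1 (0.28), Mlh3 (0.16) and Meiob (0.086) turned positive. Spata22 was −0.012 with DESeq2. With 1 library left out, values ran from −0.0091 to 0.22 for Brca2, from −0.12 to 0.038 for Dmc1, from −0.031 to 0.49 for Hfm1, from −0.79 to 0.024 for Meiob, from −0.28 (without wild-type replicate 3) to −0.034 (without wild-type replicate 2) for Mlh3, from −0.49 (without the second Pnma4 knockout) to −0.22 for Spo11 and from −0.21 to 0.18 for Spata22. The 10 genes called between the double knockout and the Pnma4 knockouts became 16 with DESeq2, 198 without scaling factors and 31 without the filter. With the replicate number as a block (replicate block), 7 genes were called, the median of the members was −0.019 and Spata22 was −0.019. Same-numbered libraries deviated together with correlations of 0.037, −0.064 and 0.079, not every library was closest to its own number, and the numbers were not taken to pair the samples. The cause of these changes was not tested. Depth limits Spata22 most, with 5 to 21 counts per library.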
